A study of Aquarana catesbeiana with 18 samples.

Results

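The ferritin genes are the 8 of 24636 genes in the count table whose product is described as a ferritin heavy, light, middle, higher or lower subunit. They were chosen by those words in the deposited gene descriptions, and no mitochondrial ferritin was among the rows that matched. These genes and the lists used below were chosen with earlier results of these data known. Calls among them may not be independent of that choice. LOC141110980, described as ferritin heavy chain B-like, was in addition singled out by name with results of these data known, so its values are given below as a description, without a test, and counts of calls are over the other 7 genes. RNA sequencing was run on total RNA of the American bullfrog (Aquarana catesbeiana). The groups are albino skin of the back, wild-type skin of the back, albino liver, wild-type liver, albino eyes and wild-type eyes, with 3 libraries in each and 18 in all. The labels write the albino genotype as "abino" and give no causative allele, age, sex or treatment, and they do not say whether the replicates of a group are separate animals. If they are not, the p-values below measure only the spread between these libraries.

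Ferritin is the cytosolic iron store of animals, a hollow shell built from subunits that mix in proportions that differ between tissues. Heavy-type subunits carry a ferroxidase centre that oxidises ferrous iron as it enters, while light-type subunits lack that centre and favour formation of the mineral core. Bullfrogs have a further middle type, which has the ferroxidase centre, and bullfrog ferritins named higher, middle and lower after the order in which the subunits run on a gel are classic objects of ferritin chemistry. In vertebrates, iron regulatory proteins bind ferritin messenger RNA and hold back its translation when iron is scarce, so messenger levels and protein levels need not move together.

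Of the 8 genes, 3 are of the middle type (LOC141110975, described as the middle subunit, and LOC141110974 and LOC141110977, described as middle subunit-like). A further 3 are heavy or higher subunits, namely FTH1 (ferritin heavy chain 1), LOC141110978 (the higher subunit) and LOC141110980. The remaining 2 are LOC141110979, the lower subunit, and LOC141110973, like a light chain of oocytes. The deposited annotation gives a ferroxidase activity term to 6 of the 8 and gives none to the lower subunit and the light chain-like gene. In the RefSeq gene order of assembly ASM4218655v1, 7 of the 8 lie next to each other on linkage group LG10, in the order LOC141110973, LOC141110975, LOC141110977, LOC141110974, LOC141110978, LOC141110979, LOC141110980, between the uncharacterized genes LOC141110972 and LOC141110981. FTH1 lies alone on LG11, between the inner centromere protein gene INCENP and a bestrophin-4-like gene, apart from a pseudogene that is not in the count table. An uncharacterized non-coding gene, LOC141110976, overlaps LOC141110975 and had 0 to 20 counts per library. No source used here says how reads were shared between genes that overlap or resemble each other, so values of single copies within the run on LG10 are uncertain to that extent.

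Levels are given as scaled FPKM, the deposited FPKM (fragments per kilobase of gene, relative to all counted reads of the library) divided by a TMM (trimmed mean of M values) factor computed over all 18 libraries, with SD and n = 3 libraries per group. They are per length, so genes can be set side by side. A log2 difference is fitted by edgeR on the counts, with its SE, and "called" means an adjusted p under 0.05 from edgeR's quasi-likelihood test with Benjamini-Hochberg adjustment over all genes tested in that comparison. All 8 genes passed the count filter in every comparison.

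Libraries held 34.3 to 39.2 M counts. Markers fitted the labelled tissues: the summed level of 12 hepatocyte rows was at least 196700 scaled CPM (CPM being counts relative to the library total, scaled alike) in liver libraries, against at most 1726 elsewhere, and that of 7 retina rows was at least 17180 in eyes and at most 60.7 elsewhere. Libraries of the same group were not equally alike. Albino eyes 1 and 2 had 12.0 and 3.57 scaled CPM of 6 lens rows, against 19340 in albino eyes 3 and 32500 to 61340 in wild-type eyes. Wild-type livers 2 and 3 resembled each other more than any other pair, with 4 genes present in one and at 0 counts in the other, against 22 to 144 in the other pairs of a group. Skin albino 1 and skin wild-type 3 had the lowest TMM factors within skin, 0.813 and 0.835, against 1.08 to 1.13 in the other 4.

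The 8 genes differed widely in level, and the leading subunit differed between tissues. In skin the higher subunit LOC141110978 was the most abundant ferritin transcript, at 9807 ± 4982 scaled FPKM in albino skin and 10900 ± 5133 in wild-type skin, and ranked 6 and 3 among all 24636 genes in these groups. In liver the middle subunit LOC141110975 led, at 11900 ± 1165 in albino liver and 12110 ± 1470 in wild-type liver, ranks 16 and 10. In eyes the higher subunit led again, at a lower level of 3553 ± 449 in albino eyes and 1939 ± 100.5 in wild-type eyes.

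**Figure D1:**
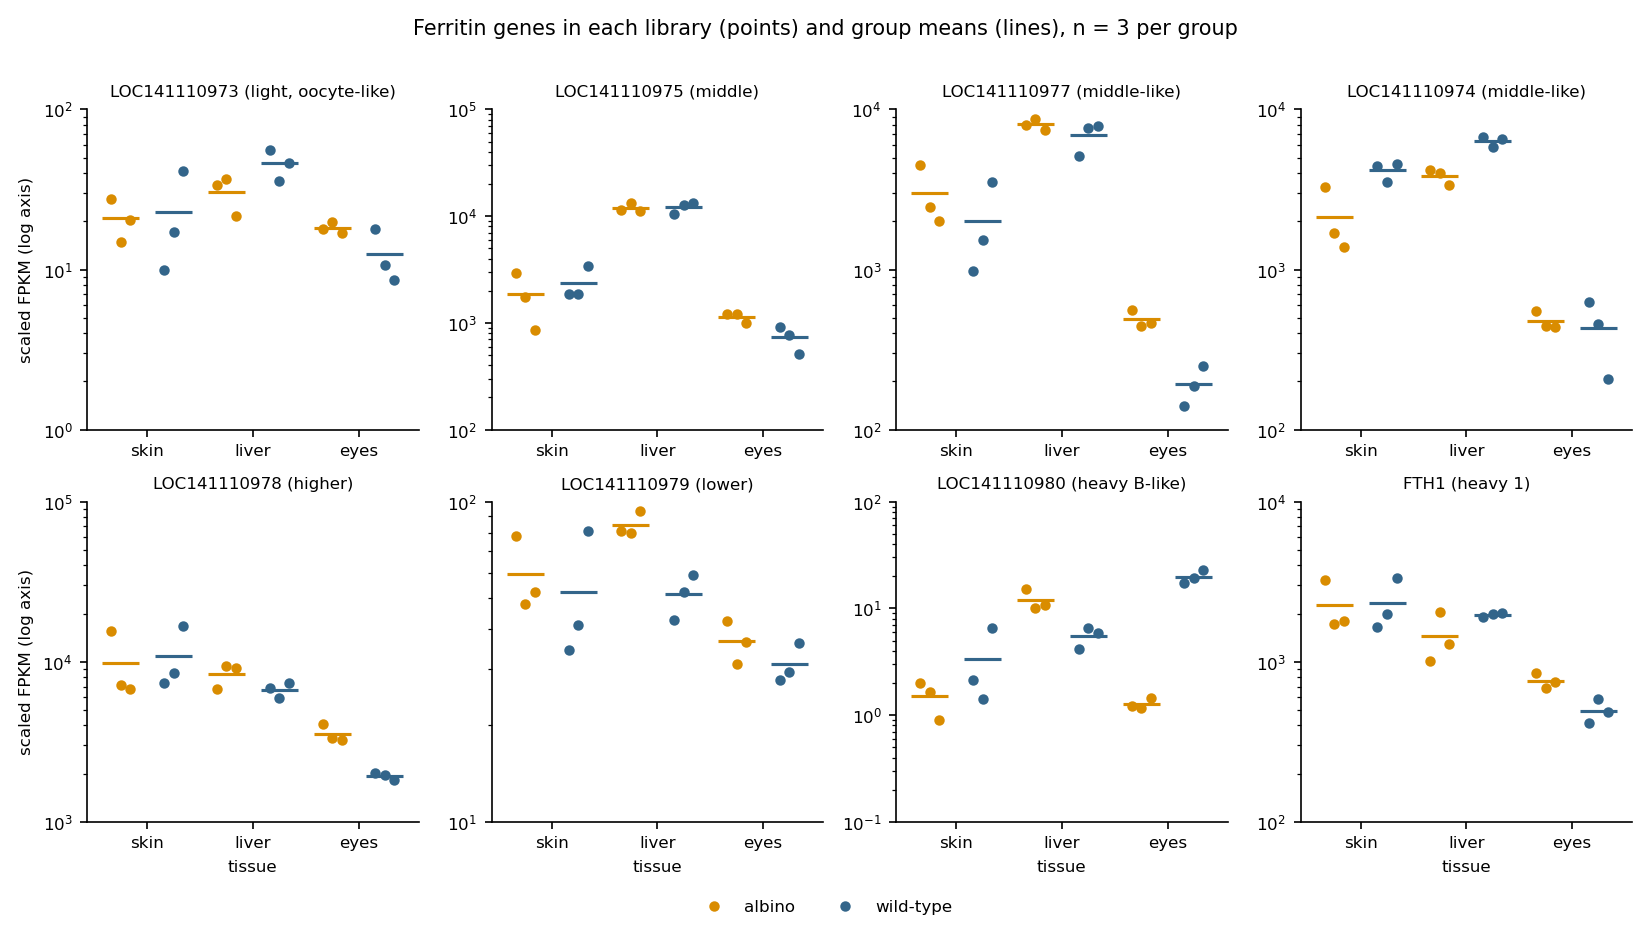
Each panel shows 1 ferritin gene, with scaled FPKM on a log axis against tissue; points are libraries and lines are means of 3 libraries, albino left of wild-type in each tissue. Within each genotype LOC141110975, LOC141110977 and LOC141110974 are highest in liver, and LOC141110980 lies between 1.16 and 1.45 in albino eyes, against 17.1 to 23.2 in wild-type eyes.

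FTH1 followed the higher subunit in order of tissues, at 2252 ± 845 in albino skin and 2326 ± 898 in wild-type skin, 1443 ± 531 in albino liver and 1970 ± 51.1 in wild-type liver, and 760 ± 82.7 in albino eyes and 494 ± 86.0 in wild-type eyes. The lower subunit and the light chain-like gene were scarce everywhere. LOC141110979 ranged over group means from 31.1 in wild-type eyes to 84.7 in albino liver, and LOC141110973 from 12.4 in wild-type eyes to 46.1 in wild-type liver. LOC141110980 was the scarcest of the 8 in 5 of the 6 groups, with group means from 1.28 to 12.0, and in wild-type eyes it stood at 19.9 ± 3.04, above LOC141110973.

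The make-up of the ferritin pool by FPKM separated liver from the other tissues in both genotypes. The 3 middle-type genes held 70.6 ± 3.9% of all ferritin FPKM in albino liver and 74.2 ± 2.5% in wild-type liver. They held 36.3 ± 3.4% in albino skin and 40.0 ± 4.1% in wild-type skin, and 32.6 ± 1.3% in albino eyes and 34.8 ± 5.8% in wild-type eyes. No skin or eye library reached the lowest liver value of 67.4%, their highest being 44.4%. Light and lower subunit genes together held between 0.258% and 1.34% in every library. These shares are of transcripts and not of protein subunits. As a share of all counts, the 8 genes took 1.92 ± 0.594% in albino skin and 2.25 ± 0.473% in wild-type skin, and 1.59 ± 0.0325% in albino liver and 1.95 ± 0.256% in wild-type liver. In eyes they took 0.849 ± 0.116% in albino and 0.431 ± 0.0819% in wild-type libraries, with no overlap between the genotypes. These shares of counts are not TMM scaled, and summed scaled FPKM ordered the tissues otherwise. Liver had the highest mean sums, 33790 ± 3244 in albino and 34130 ± 3020 in wild-type libraries. Skin had 19090 ± 9176 in albino and 21850 ± 8588 in wild-type libraries. Eyes had 6480 ± 717.5 in albino and 3854 ± 446 in wild-type libraries, again without overlap. Of all single genes tested in eyes, 21.2% did not overlap with albino higher.

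**Figure D2:**
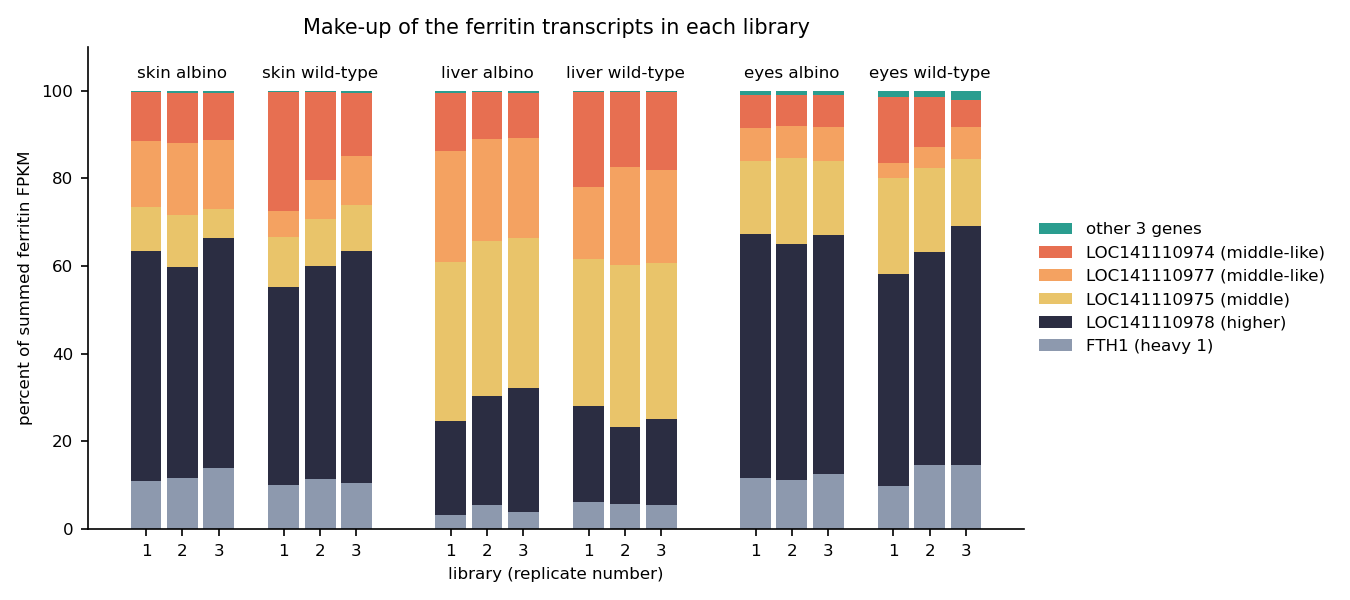
Stacked bars show, for each of the 18 libraries, the percent of summed ferritin FPKM held by each gene, from 0 to 100; the 3 scarcest genes are joined. The middle-type genes hold over 67% of every liver bar and under 45% of every skin and eye bar.

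Tissues were compared within wild-type libraries and, as an alternative, within albino libraries. In wild-type eyes the ferritin genes were lower than in wild-type liver throughout: 7 of 7 passed, where 68.1% of all tested genes passed in either direction and 29.9% as lower. The largest differences were those of the middle type, with log2 differences of -5.20 ± 0.29 for LOC141110977, -4.08 ± 0.27 for LOC141110975 and -3.91 ± 0.36 for LOC141110974 (adjusted p from 1.65e-08 to 1.16e-06). FTH1 differed by -2.03 ± 0.26, LOC141110973 by -1.93 ± 0.29, LOC141110978 by -1.83 ± 0.21 and the lower subunit LOC141110979 by -0.76 ± 0.17. With libraries scaled by their totals the median gene was higher in eyes by 1.25 on the log2 scale, and LOC141110979 then turned to 0.26 (adjusted p = 0.267), while the other 6 still passed as lower. In bulk tissue, fewer cells of a type and less RNA per cell cannot be told apart.

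Against wild-type skin, 5 of the 7 genes were lower in wild-type eyes, where 58.2% of tested genes passed in either direction and 27.3% as lower. They were LOC141110977 (-3.38 ± 0.49), LOC141110974 (-3.25 ± 0.45), LOC141110978 (-2.48 ± 0.41), FTH1 (-2.22 ± 0.34) and LOC141110975 (-1.67 ± 0.44). LOC141110979 stood at -0.73 ± 0.31 (adjusted p = 0.0589), and passed with equal replicate numbers of skin and eyes as a block, at -0.64 (adjusted p = 0.0245). LOC141110973, at -0.85 ± 0.46, had an adjusted p of 0.136.

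Wild-type skin and wild-type liver differed in 2 of 7 genes, both of the middle type and lower in skin, where 46.4% of tested genes passed and 20.9% did so as lower. LOC141110975 differed by -2.39 ± 0.45 (adjusted p = 0.000986) and LOC141110977 by -1.81 ± 0.48 (adjusted p = 0.00916). The third middle-type gene, LOC141110974, stood at -0.66 ± 0.34 (adjusted p = 0.134), the higher subunit at 0.66 ± 0.42 and FTH1 at 0.20 ± 0.38. These directions are relative to the median of all genes. With libraries scaled by their totals, the median gene was higher in skin by 1.02 on the log2 scale, FTH1 and LOC141110978 passed as higher in skin (1.10 and 1.55), and LOC141110974 changed direction to 0.30.

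LOC141110980 had the opposite order in wild-type libraries, with 19.9 ± 3.04 scaled FPKM in wild-type eyes, against 5.55 ± 1.19 in wild-type liver and 3.37 ± 2.80 in wild-type skin. In albino libraries it had 1.28 ± 0.155 in eyes, against 12.0 ± 2.70 in liver and 1.52 ± 0.571 in skin. In albino libraries the tested genes gave 7 of 7 lower in eyes than in liver (68.2% of all tested genes passed, 30.9% as lower), 4 of 7 lower in eyes than in skin (56.7%, 27.3% as lower) and 3 of 7 lower in skin than in liver (44.2%, 20.3% as lower). The gene lost in eyes against skin was LOC141110975, at -0.75 ± 0.43 (adjusted p = 0.156), and the gene gained in skin against liver was LOC141110974, at -0.92 ± 0.34 (adjusted p = 0.0448).

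**Figure D3:**
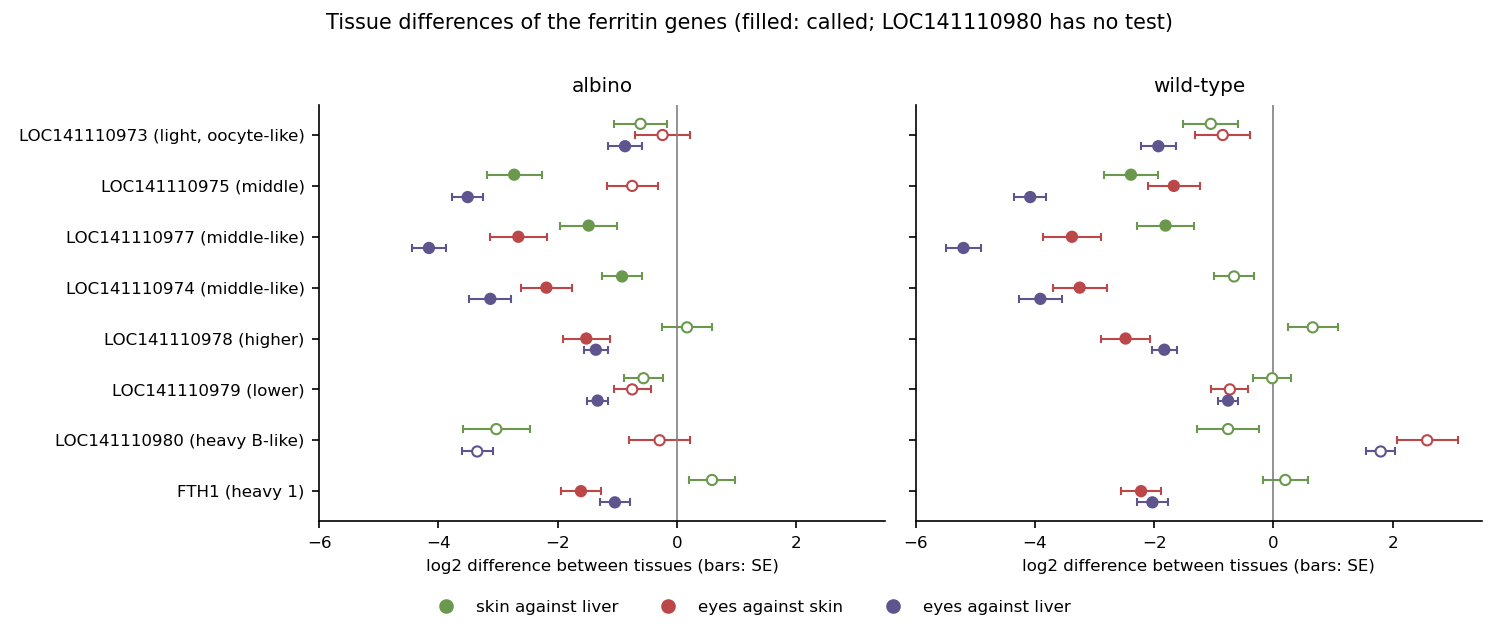
Log2 differences between tissues with SE for each ferritin gene, within albino libraries (left) and wild-type libraries (right); filled points passed an adjusted p of 0.05, and LOC141110980 was not tested. The middle-type genes have the most negative values in eyes against liver, and LOC141110980 is positive in wild-type eyes and negative in albino eyes against liver.

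In eyes, albino libraries had more of the higher subunit and of 1 middle-like subunit, and far less of the heavy chain B-like gene. The middle-like gene LOC141110977 had 559, 446 and 466 scaled FPKM in albino eyes 1 to 3, against 140, 188 and 248 in wild-type eyes 1 to 3. Every albino value lay above every wild-type value, and the log2 difference was 1.31 ± 0.21 (adjusted p = 0.0121). The higher subunit LOC141110978 had 4070, 3326 and 3263 scaled FPKM in albino eyes and 2033, 1950 and 1833 in wild-type eyes. Its groups did not overlap either, and it rose by 0.83 ± 0.16 (adjusted p = 0.0201). These 2 of 7 genes passed, both as higher in albino eyes, where 11.2% of all tested genes passed and 5.10% did so as higher.

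The other 5 genes did not pass. FTH1, the heavy chain outside the run on LG10, had 849, 685 and 747 scaled FPKM in albino eyes and 412, 584 and 487 in wild-type eyes. These values did not overlap, and the log2 difference was 0.58 ± 0.18 (adjusted p = 0.0787). DESeq2 gave an adjusted p of 0.0146, and it called 18.3% of the genes it tested in eyes. The middle subunit LOC141110975 had 1206, 1215 and 1003 in albino eyes and 925, 772 and 508 in wild-type eyes, again without overlap, at 0.58 ± 0.24 (adjusted p = 0.146). The values of LOC141110973 (0.50 ± 0.27), LOC141110979 (0.20 ± 0.16) and LOC141110974 (0.10 ± 0.38) overlapped between genotypes. All 7 log2 differences were positive, with a median of 0.58 beside 0.009 over all 17817 tested genes. Groups did not overlap with albino higher for 4 of the 7, and for 21.2% of all tested genes.

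LOC141110980 went the other way in eyes. It had 37, 36 and 44 counts in albino eyes 1 to 3, against 510, 447 and 614 counts in wild-type eyes 1 to 3. In scaled FPKM these were 1.22, 1.16 and 1.45 in albino eyes and 17.1, 19.4 and 23.2 in wild-type eyes. The wild-type mean was 15.6 times the albino mean, and the log2 difference was -4.0 ± 0.21, in a tissue where 15.6% of all tested genes did not overlap with albino lower. Ordered by mean over the 6 groups, wild-type eyes came first, followed by albino liver, wild-type liver, wild-type skin, albino skin and albino eyes. Neighbours did not overlap from wild-type eyes down to wild-type liver, while wild-type liver, wild-type skin, albino skin and albino eyes each overlapped with the next in that order.

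**Figure D4:**
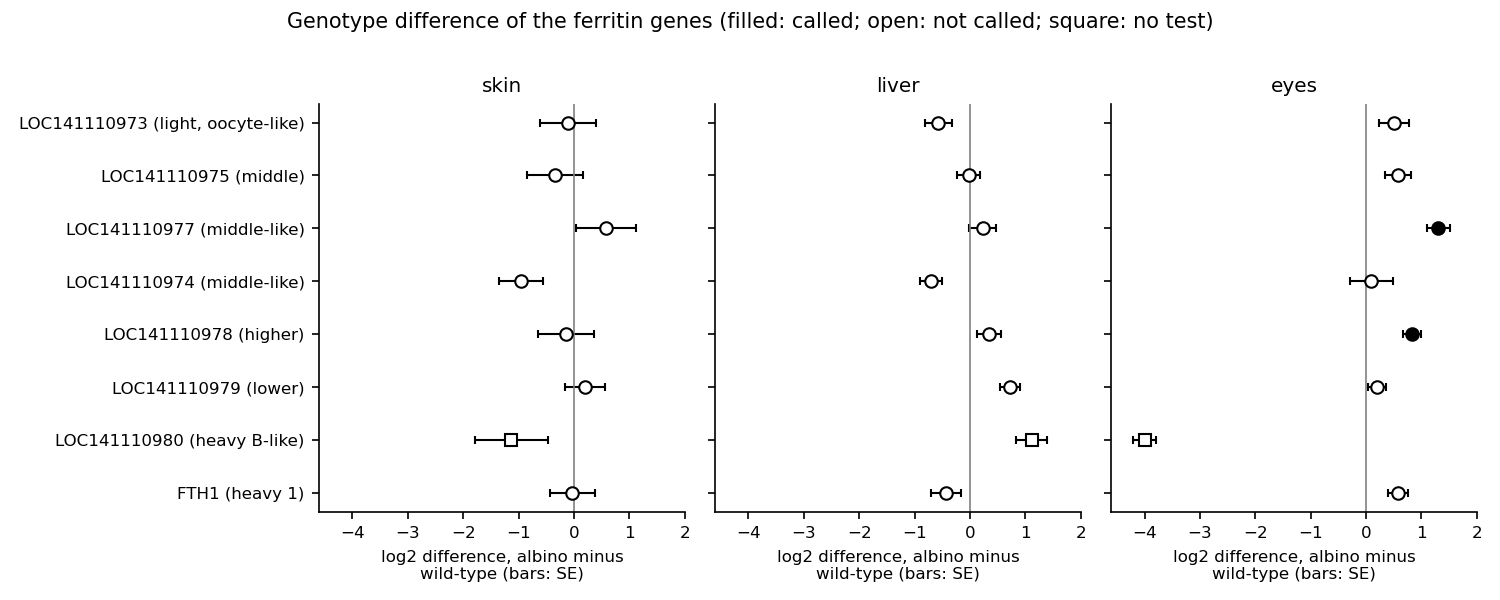
Points are log2 differences between genotypes (albino minus wild-type) in skin, liver and eyes, 1 row per ferritin gene, with bars of 1 SE; filled circles passed an adjusted p of 0.05, open circles did not, and squares mark LOC141110980, which was not tested. The 2 filled points are LOC141110977 and LOC141110978 in eyes, and LOC141110980 stands at -4.0 in eyes.

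The eye libraries also differed in what tissue they held. Lens rows were nearly absent from albino eyes 1 and 2, as given above, and 0 of 6 lens rows were called. Albino eyes 3 held lens RNA, at 19340 scaled CPM, but less than any wild-type eye library (32500 to 61340). LOC141110977 (466) and LOC141110978 (3263) lay above every wild-type value in this library. Every albino eye library thus held less lens RNA than every wild-type one, so lens content and genotype cannot be told apart here. With the lens sum as a covariate neither gene passed, and the log2 differences were 1.29 for LOC141110977 (adjusted p = 0.182), 0.74 for LOC141110978 (adjusted p = 0.282) and -3.76 for LOC141110980. Summed retina rows had 25230 to 34150 scaled CPM in albino eyes and 17180 to 20860 in wild-type eyes, with 2 of 7 rows called higher. Skeletal muscle rows had 2718 to 6192 in albino eyes and 1032 to 2594 in wild-type eyes, with 1 of 7 called higher, and pigment cell rows 1638 to 1802 in albino eyes and 1170 to 1376 in wild-type eyes, with 3 of 6 called higher. Hemoglobin rows had 1489 to 2716 in albino eyes and 995 to 2328 in wild-type eyes, and with their sum as a covariate LOC141110977 had 1.08 (adjusted p = 0.0627) and LOC141110978 0.83 (adjusted p = 0.128). With the hemoglobin covariate 329 of all 17817 tested genes were called, and with the lens covariate fewer still, against 1995 without a covariate. Calls over all genes thus fell with either covariate, and not only those of the ferritin genes. Macrophage and granulocyte rows had 55.9 to 86.1 in albino eyes and 72.8 to 103.6 in wild-type eyes, with 2 of 10 called lower, beside 6.10% of all genes. Erythrocyte rows had 82.6 to 97.5 in albino eyes and 64.3 to 77.2 in wild-type eyes, with 1 of 8 called higher, and 1 of 4 tested hemoglobin rows and 2 of 3 tested hepatocyte rows were called higher. Over all tested genes, 5.10% were called higher in albino eyes. The part of retina, muscle, pigment cell, macrophage and erythrocyte content in these differences was not tested.

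Single libraries decided the call of the higher subunit. It did not pass without albino eyes 1 (0.71, adjusted p = 0.0771), without albino eyes 2 (0.89, adjusted p = 0.0555), without wild-type eyes 2 (0.85, adjusted p = 0.0561) or without wild-type eyes 3 (0.77, adjusted p = 0.0746). LOC141110977 was lost only without wild-type eyes 2 among the libraries left out in turn, at 1.31 (adjusted p = 0.0513). Calls over all genes fell as well, from 1995 to between 458 and 1634 when a library was left out.

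In liver, no ferritin gene of the 7 passed between genotypes in edgeR's test, where 5.76% of all tested genes passed. At an unadjusted p under 0.05 there were 3 of the 7 genes, beside 22.5% of all tested genes. DESeq2 called 2, LOC141110974 and LOC141110979, beside 10.6% of the genes it tested. The middle-like gene LOC141110974 had 4192, 4022 and 3372 scaled FPKM in albino liver, against 6690, 5825 and 6566 in wild-type liver. Its groups did not overlap, and the log2 difference was -0.71 ± 0.20 (adjusted p = 0.0764 in edgeR, 0.00133 in DESeq2). The lower subunit LOC141110979 had 80.7, 79.8 and 93.7 in albino liver and 42.8, 52.3 and 59.1 in wild-type liver. These values did not overlap, with albino higher, and the log2 difference was 0.73 ± 0.18 (adjusted p = 0.053 in edgeR, 0.00818 in DESeq2). In all tested genes, 15.2% did not overlap with albino lower and 13.6% with albino higher.

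LOC141110980, whose eye levels were lower in albino libraries, had higher levels in albino liver, with 15.1, 10.1 and 10.8 scaled FPKM there, against 4.21, 6.50 and 5.93 in wild-type liver. The groups did not overlap, and the log2 difference was 1.12 ± 0.28. The most abundant liver ferritin, LOC141110975, differed by -0.02 ± 0.21. LOC141110973 stood at -0.57 ± 0.24, FTH1 at -0.44 ± 0.27, LOC141110978 at 0.34 ± 0.22 and LOC141110977 at 0.23 ± 0.24, with adjusted p from 0.207 to 0.61, and LOC141110977 changed sign to -0.06 with libraries scaled by their totals. The 7 genes had a median log2 difference of -0.02 and all 14990 tested genes one of 0.001.

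Cell type markers moved in liver as well. Erythrocyte rows summed to 367 to 646 scaled CPM in albino liver and 189 to 265 in wild-type liver, with 3 of 8 called higher, and hemoglobin rows to 30000 to 54470 in albino liver and 14720 to 22640 in wild-type liver. Macrophage and granulocyte rows summed to 618 to 952 in albino liver and 1175 to 2171 in wild-type liver, with 2 of 12 called lower. Hepatocyte rows summed to 276000 to 425800 in albino liver and 196700 to 233000 in wild-type liver, with 5 of 10 called higher. Of the hemoglobin rows 1 of 4 tested was called higher, and of the skeletal muscle rows 1 was called higher and 2 lower of 3, while lens, retina and pigment cell rows did not pass the count filter. Over all tested genes, 2.86% were called higher and 2.90% lower in albino liver. The part of these cell types in the ferritin values was not tested, apart from a fit with the hemoglobin sum as a covariate, which called 0 of the 7 ferritin genes. That fit called 109 of all 14990 tested genes, against 864 without the covariate.

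In skin, no ferritin gene of the 7 passed, where 0.0946% of all tested genes did, and DESeq2 called 0 as well. Of the 7, only LOC141110974 had an unadjusted p under 0.05, as had 13% of all tested genes. It had 3291, 1681 and 1375 scaled FPKM in albino skin, against 4401, 3520 and 4571 in wild-type skin. The groups did not overlap, as for 9.89% of all tested genes with albino lower, and the log2 difference was -0.96 ± 0.40 (adjusted p = 0.377). LOC141110977 had 4487, 2461 and 2020 in albino skin and 973, 1535 and 3534 in wild-type skin, which overlapped, at 0.58 ± 0.55 (adjusted p = 0.697). The remaining 5 tested genes had log2 differences from -0.34 to 0.20, beside a median of 0.008 over all genes.

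Marker sums in skin overlapped between genotypes except for pigment cell rows, with 1041 to 1162 scaled CPM in albino skin and 192 to 334 in wild-type skin, and 1 of 6 called higher, and for skeletal muscle rows, with 14.6 to 112 in albino skin and 1.53 to 12.8 in wild-type skin. Erythrocyte rows had 29.0 to 90.5 in albino skin and 20.1 to 48.4 in wild-type skin, and macrophage and granulocyte rows 109 to 183 in albino skin and 160 to 460 in wild-type skin, with none of 8 and none of 11 called. No row was called among 5 hepatocyte, 4 skeletal muscle, 1 lens, 2 retina and 5 hemoglobin rows tested, and 0.0591% of all tested genes were called higher. The part of these cell types in the ferritin values was not tested.

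Within skin the ferritin genes varied together between libraries. Skin albino 1 and skin wild-type 3, the libraries with the lowest scaling factors, had the highest level of their group for all 8 ferritin genes. LOC141110978, for instance, had 15560 scaled FPKM in albino 1, against 7126 and 6740 in the other albino libraries, and 16790 in wild-type 3, against 7360 and 8550 in the other wild-type libraries. In deposited FPKM, before that scaling, LOC141110974 was lowest of its group in wild-type 3 (4625, against 5996 and 4667). LOC141110980 in albino 1 (2.02) then lay below albino 2 (2.24). Over the 21 pairs of the 7 genes, residuals around group means correlated in skin with a Pearson r from 0.35 to 0.99 and a median of 0.86. The same pairs had medians of 0.03 in liver and 0.30 in eyes. These r describe 6 libraries per tissue that share their scaling factor, and no test was made of them. LOC141110980 had 2.01, 1.66 and 0.891 scaled FPKM in albino skin and 2.12, 1.41 and 6.58 in wild-type skin, which overlapped. Its log2 difference of -1.13 ± 0.66 was -0.20 without wild-type skin 3.

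Whether the genotype difference of a ferritin gene varied between tissues was asked with an interaction term. None of the 7 genes passed for skin against liver, eyes against skin or eyes against liver in edgeR's test, where 0.270%, 0.991% and 3.42% of all tested genes passed. At an unadjusted p under 0.05 there were 0, 0 and 4 of the 7 genes, beside 9.71%, 13.4% and 17.7% of all tested genes. DESeq2 called 0, 0 and 2, beside 1.99%, 4.78% and 8.95% of the genes it tested. In eyes against liver the tested genes with the largest values were LOC141110973, at 1.05 ± 0.40 (adjusted p = 0.184), and LOC141110977, at 1.05 ± 0.35 (adjusted p = 0.131). For LOC141110980 the genotype effect in eyes minus that in liver was -5.15 ± 0.35, and no test was made of it.

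The ratio of the FPKM of the middle-like copies, LOC141110974 over LOC141110977, within a library does not depend on the scaling of libraries. It was 0.734, 0.683 and 0.681 in albino skin 1 to 3, against 4.52, 2.29 and 1.29 in wild-type skin 1 to 3. In liver it was 0.525, 0.461 and 0.454 in albino libraries and 1.31, 0.764 and 0.831 in wild-type libraries. In eyes it was 0.991, 0.998 and 0.935 in albino libraries and 4.504, 2.42 and 0.839 in wild-type libraries.

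Albino and wild-type ratios did not overlap in skin and liver, and they overlapped in eyes through wild-type eyes 3. Albino libraries of a tissue had nearly the same ratio, with an SD of 0.0299 in skin, 0.0393 in liver and 0.0344 in eyes, against 1.65, 0.296 and 1.84 in wild-type libraries. Wild-type libraries with the same replicate number had like ratios in skin and eyes for numbers 1 (4.52 and 4.504) and 2 (2.29 and 2.42). The ratio was chosen after the values were seen and is given without a test, and no source used here says how reads that match both copies were counted.

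**Figure D5:**
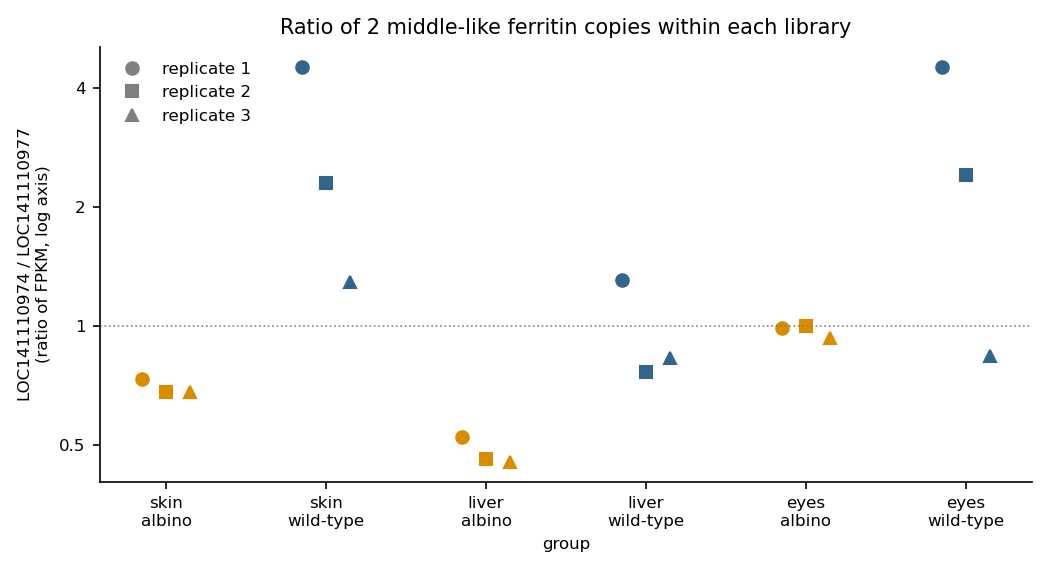
The ratio of LOC141110974 to LOC141110977 FPKM in each library on a log axis, by group, albino left of wild-type; marker shapes give replicate numbers and the dotted line marks equal levels. Albino ratios lie between 0.454 and 0.998, and wild-type ratios between 0.764 and 4.52, the widest spread being in wild-type skin and wild-type eyes.

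Among other genes of iron handling, eyes and liver held calls and skin held none. The list had 43 symbols, of which 38 matched 43 rows of the table. In eyes 6 of 40 tested rows rose and none fell, where 5.10% of all genes passed as higher and 6.10% as lower. The list's median log2 difference was 0.25. The serotransferrin-like gene LOC141139453 is named for its likeness to serotransferrin, the iron carrier of plasma, and what its product binds was not examined. It had 1579 ± 129 scaled CPM in albino eyes and 93.0 ± 60.7 in wild-type eyes, a log2 difference of 4.02 ± 0.49 (adjusted p = 0.00673). The other 10 rows of the hepatocyte list, without serotransferrin, summed to 1.05 to 3.25 scaled CPM in albino eyes and 0.388 to 0.891 in wild-type eyes, without overlap, and their part in this difference was not tested.

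The remaining 5 calls in eyes were smaller. They were the iron exporter ferroportin (SLC40A1, 0.56 ± 0.10), the iron chaperone PCBP2 (0.61), the iron-sulfur scaffold ISCU (0.67), and the copies LOC141102629 (1.19 ± 0.15) and LOC141102627 (0.85) of 5-aminolevulinate synthase, the first enzyme of heme synthesis. Most of these were lost when single libraries were left out: without each library in turn, between 2 and 5 of the list's genes passed. The count was 2 without albino eyes 2 or wild-type eyes 2, and 3 without albino eyes 1, albino eyes 3 or wild-type eyes 3. In the same order these fits called 458, 623, 618, 1324 and 825 of all tested genes, against 1995 with all libraries.

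In liver 7 of 40 iron handling rows passed, beside the 5.76% of all genes given above, 4 higher and 3 lower in albino libraries, where 2.86% of all genes passed as higher and 2.90% as lower. LOC141139453 rose by 1.61 ± 0.27, with 36970 ± 7178 scaled CPM in albino liver and 12250 ± 2984 in wild-type liver. The ceruloplasmin-like ferroxidase gene LOC141139613 rose by 1.95, the erythroid 5-aminolevulinate synthase ALAS2 by 1.64 and the STEAP4-like metalloreductase LOC141144210 by 1.00. The list also held LOC141142525 (serotransferrin-like), LOC141139611 (ceruloplasmin-like) and LOC141144211 (STEAP4-like), none of which was called in any tissue. Heme oxygenase 1 (HMOX1), which frees iron from heme, had 153 ± 35.0 scaled CPM in albino liver and 334 ± 5.97 in wild-type liver, and it fell by 1.12 on the log2 scale (adjusted p = 0.0223). The putative heme transporter FLVCR2 fell by 1.59 and the heme transporter SLC48A1 by 1.75. ALAS2 is also in the erythrocyte list, and the serotransferrin-like rows are also in the hepatocyte list. Without albino liver 2, wild-type liver 2 or wild-type liver 3, or with wild-type livers 2 and 3 summed as 1 library, the counts of iron handling calls were 0, and without albino liver 3 the count was 2. In the same order these fits called 257, 134, 183, 147 and 306 of all tested genes, against 864 with all libraries.

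Regulators of ferritin and of iron uptake did not pass in any tissue, in edgeR or in DESeq2. They were the iron regulatory proteins ACO1 and IREB2, the ubiquitin ligase adaptor FBXL5 that degrades IREB2, the ferritin autophagy receptor NCOA4 and the transferrin receptor TFRC. Their log2 differences lay between -0.32 and 0.29 over the 3 tissues, and none had an unadjusted p under 0.05 in edgeR's test. Of all tested genes, 29.9% in eyes, 22.5% in liver and 13% in skin had one. Those called by edgeR were 11.2%, 5.76% and 0.0946% in the same order, and by DESeq2 18.3%, 10.6% and 3.9%. Beside these shares, the absence of calls among 5 genes does not show that they were unchanged. In skin 0 of 39 iron handling rows passed in edgeR's test, with 3 at an unadjusted p under 0.05 and 1 called by DESeq2, beside 13% and 3.9% of all genes. HMOX1 stood at -0.59 ± 0.28 in eyes (adjusted p = 0.199) and -0.25 ± 0.36 in skin, LOC141139453 at 1.14 ± 0.96 in skin, and SLC40A1 at -0.06 ± 0.19 in liver and -0.40 ± 0.26 in skin.

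Genes next to the ferritin run were compared as well. LOC141110981, which follows LOC141110980, had log2 differences of -0.57 ± 0.17 in eyes (adjusted p = 0.0683), -0.15 ± 0.24 in liver and -1.02 ± 0.41 in skin. NUCB1 after it stood at -0.22 ± 0.10 in eyes, and GYS1 on the other side of the run at 0.08 ± 0.17, and neither passed. INCENP, next to FTH1, was lower in albino eyes, with a log2 difference of -1.37 ± 0.21 (adjusted p = 0.0101). Of the other genes within 3 places of a ferritin gene, LOC141110983 (1.49 ± 0.36) and the non-coding gene LOC141112133 (-3.44 ± 0.42) were called in liver. No other neighbour was called in any tissue. Over all tested genes, 11.2% were called in eyes, 5.76% in liver and 0.0946% in skin.

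Over the 18 libraries and 16296 genes, the genes whose log2 level was most like that of LOC141110980 by Pearson r were MFSD2B (0.882), MISP (0.875), PLAAT1 (0.87), LOC141107275 (0.843) and CEP83 (0.84). Those most like LOC141110978, the ferritin gene with the highest mean, were RPLP1 (0.978), TMEM14C (0.974), SNRPG (0.972), RPL30 (0.968) and OST4 (0.967). These r describe 3 tissues of 2 genotypes. For LOC141110978 the group means were highest in skin and lowest in eyes of both genotypes. For LOC141110980 the highest and the lowest group means were of 1 tissue, 19.9 scaled FPKM in wild-type eyes and 1.28 in albino eyes. Its r thus draw on the genotype difference in eyes of a gene singled out with results of these data known. Among the ferritin genes themselves, the 21 pairs of the other 7 genes had r from 0.56 to 0.94 over the 18 libraries, whereas LOC141110980 had r from -0.36 to 0.21 with the other 7.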

How the data were processed

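Per the submitters' processing notes, HISAT2 and HTSeq were used. Their versions, the genome build, the strand setting and the rule for reads with several possible genes are not given in the sources. Per the labels, RNA was extracted with TRIzol and libraries were made with a VAHTS Universal V10 kit. The authors deposited raw counts per gene and FPKM, and the deposited FPKM equal counts scaled by gene length and by the library's total count, with 1 length per gene. All 24636 identifiers matched the RefSeq table of assembly ASM4218655v1, used for names and gene order only. Marker lists were those of erythrocytes, hemoglobin subunits, macrophages and granulocytes, hepatocytes, skeletal muscle, lens, retina and pigment cells.

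Tests on the counts used edgeR 4.0.16 (R 4.3.3): filterByExpr and TMM scaling within each comparison, the robust quasi-likelihood test on the groups compared, and Benjamini-Hochberg adjustment over all genes tested, at 0.05. Interactions were fitted on the 4 groups of a pair of tissues. Scaled FPKM and CPM use TMM factors over all 18 libraries. Likeness is Pearson r of log2(scaled CPM + 0.5) among genes with a mean of at least 1 CPM. The code was tested on simulated data. The members and lists were chosen with earlier results of these data known. Named genes are all ferritin genes, every called iron handling gene, 8 iron handling genes whether called or not, and the 5 genes most like each of 2 ferritin genes.

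Residual correlations between libraries of the same number were -0.249 to 0.065 for albino with wild-type libraries, which were treated as unpaired, and 0.135 to 0.488 for eyes with skin of the same genotype, which pairs them by the data alone. The reported tests of eyes against skin did not use that pairing, which entered only as the replicate block among the alternatives. With the block LOC141110979 passed as well in wild-type eyes against skin (adjusted p = 0.0245 in edgeR's test). For liver with skin or eyes they were 0.0658 to 0.384, not all above 0.1, so these were treated as unpaired. Alternatives were DESeq2 1.42.0, RLE scaling, library totals, leaving low counts in, replicate number as a block, all 18 libraries in 1 fit, limma 3.58.1 on log2 FPKM with 1 or 0.1 added, each library left out, wild-type livers 2 and 3 summed, and, between tissues, albino in place of wild-type libraries. Fits with lens or hemoglobin content as a covariate were added after seeing the data. Counts limit precision for LOC141110980 most, at 24 to 614 per library, and SDs between libraries include that counting error.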

Additional observations from a re-analysis of the deposited data

Results flagged for a closer look

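The genotype effect on LOC141110980, the heavy chain B-like ferritin gene, differed between eyes and liver by -5.15 on the log2 scale. It was lower in every albino eye library and higher in every albino liver library than in any wild-type library of that tissue, and the difference was not tested. Among all tested genes, 15.6% did not overlap with albino lower in eyes, and 13.6% with albino higher in liver. LOC141110980 was singled out by name with results of these data known.

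Of 42 other iron handling rows tested, 3 had genotype effects that differed between eyes and liver by edgeR's interaction test, beside 3.42% of all tested genes. The putative heme transporter FLVCR2 differed by 1.95 ± 0.36 (adjusted p = 0.016), with 35.7 ± 3.38 scaled CPM in albino eyes and 26.4 ± 5.51 in wild-type eyes, against 34.4 ± 4.67 in albino liver and 104.2 ± 38.8 in wild-type liver. The serotransferrin-like gene LOC141139453 differed by 2.39 ± 0.56 (adjusted p = 0.0386), being higher in albino libraries of both tissues and more so in eyes. The 5-aminolevulinate synthase gene LOC141102629 differed by 0.94 ± 0.23 (adjusted p = 0.0497), with 27.3 ± 1.26 scaled CPM in albino eyes and 11.6 ± 2.23 in wild-type eyes, against 46.2 ± 8.11 in albino liver and 39.9 ± 3.51 in wild-type liver.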

How the results depend on the processing

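The count of ferritin calls between genotypes in skin was 0 under every alternative run, and that of wild-type eyes against liver was 7, or 6 with library totals and in limma. That of wild-type eyes against skin, 5 in the analysis reported, was 4 within albino libraries and 5 to 7 otherwise. The interactions of skin with liver and of eyes with skin gave 0 throughout. In eyes the 2 calls became 3 in DESeq2 and with library totals, 1 with the replicate block, 0 in 1 fit of all 18 libraries, 0 with the lens and 0 with the hemoglobin covariate, 4 in limma with 1 or 0.1 added, and 0 to 3 without single libraries. With the replicate block LOC141110978 stood at 0.82 (adjusted p = 0.0735). In liver the count of 0 became 2 in DESeq2 and 1 with library totals and in limma with 1 or 0.1 added. Over all genes, 864 calls in liver became 1840 in DESeq2, 1182 with library totals, and 1017 and 1009 in limma. In wild-type skin against liver 2 calls became 5 with library totals and in limma with 1 or 0.1 added, and 3 with the block, within albino libraries or without wild-type skin 3. Calls over all genes, 8423 in that comparison, became 11550 with library totals, 11035 and 11460 in limma, and 8757 with the block. They were 8017 within albino libraries and 7885 without wild-type skin 3. For eyes against liver as an interaction, 0 became 2 in DESeq2, 3 with library totals, 6 and 5 in limma with 1 and 0.1 added, and 0 to 1 without single libraries. Interaction calls over all genes, 654 as reported, became 1680 in DESeq2 and 1820 with library totals. They were 3738 and 3101 in limma and 270 to 887 without single libraries. The 7 iron handling calls in liver became 11 in DESeq2, 4 in 1 fit of all libraries and in limma, 0 with the hemoglobin covariate, 0 with wild-type livers 2 and 3 summed, and 0 to 8 without single libraries. Calls over all genes in liver were 1096 in 1 fit of all libraries and 109 with the hemoglobin covariate. They were 147 with wild-type livers 2 and 3 summed, and 134 to 1381 without single libraries. The 6 in eyes became 8 in DESeq2, 10 with library totals and in limma, 2 with the block, 3 in 1 fit of all libraries, 2 with the hemoglobin covariate, 0 with the lens covariate, and 2 to 5 without single libraries. These counts stand beside the calls over all genes in eyes given above for the same fits. The 0 in skin became 1 in DESeq2 and in 1 fit of all libraries, where 750 and 680 of all genes were called, against 16 as reported. The cause of these changes was not tested.

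Not every ferritin gene was followed singly under the alternatives. Left out were LOC141110975 between genotypes in liver, and FTH1, LOC141110973, LOC141110975, LOC141110978 and LOC141110979 between genotypes in skin. Also left out were LOC141110973 in eyes against skin, and LOC141110973 and LOC141110979 in skin against liver. Among those followed, directions turned for LOC141110977 between genotypes in liver (-0.06 with library totals, -0.03 in limma) and for LOC141110974 in eyes (-0.01 with the lens covariate, -0.24 to 0.46 without single libraries). Between wild-type tissues they turned for LOC141110974 in skin against liver (0.30 with library totals, 0.29 in limma), for LOC141110979 in eyes against liver (0.26 in each) and for FTH1 in skin against liver (-0.17 to 0.41 without single libraries, negative without wild-type skin 3). Of the other values of the tested single genes followed under an alternative, 581 kept direction and side of the threshold, 107 no longer passed and 27 newly passed. Scaling by library totals put the median gene at -0.278 in liver, against 0.001 with TMM, and at 0.276 in eyes, against 0.009 with TMM. It changed the numbers of genes called as higher and lower in albino libraries to 243 and 939 in liver, against 429 and 435 with TMM, and to 2290 and 623 in eyes, against 909 and 1086. The replicate block gave 1 ferritin call in eyes, 3 in wild-type skin against liver, 6 in eyes against skin and 7 in eyes against liver, and otherwise 0. Over all genes the block called 937, 8757, 11905 and 13131 in the same order, against 1995, 8423, 11345 and 13017 as reported. Between genotypes in liver it lost the call of SLC48A1 (-1.72, adjusted p = 0.0748) and gained that of BLVRA (0.98, adjusted p = 0.033), and in eyes it lost those of SLC40A1, PCBP2, ISCU and LOC141102627.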
